A study of Drosophila melanogaster with 6 samples.

Results

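The Na+/K+ ATPase, the cation-chloride cotransporters and the ClC proteins set the sodium, potassium and chloride gradients on which every signal of a neuron runs. RNA of 9 of their genes was measured in fly (Drosophila melanogaster) olfactory projection neurons, which relay odour signals out of the antennal lobe. The genes were chosen by symbol, as Atpalpha, nrv1, nrv2, nrv3, kcc, Ncc69, ClC-a, ClC-b and ClC-c, from the 14138 named rows of the expression table. A relative of Ncc69, the gene now called NKCC, is listed in the table as CG31547 and is described beside them, outside the count of 9.

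The adult group held 3 libraries of flies aged 5 days, and the development group held 3 libraries of animals collected 36 h after puparium formation (APF). All flies were untreated and raised at the same temperature and light cycle, and cells carrying a GFP marker were sorted by flow cytometry, about 2000 per library, and sequenced after SMART-seq2, which copies whole transcripts from small RNA amounts. The labels name no genotype, no sex, no driver of the GFP marker and no pooling of animals. Nothing says that libraries of a group came from separate sorts, so p-values reflect only library-to-library spread, part or all of which may be technical. The comparison asks how expression differs between mature neurons and neurons of the stage at which their circuit is assembled.

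The sodium pump moves sodium out of the cell and potassium into it at the cost of ATP. Its alpha subunit, encoded by Atpalpha, is the catalytic part, and a beta subunit, encoded in flies by the nervana genes nrv1, nrv2 and nrv3, is needed to bring it to the membrane. The potassium-chloride cotransporter Kcc carries chloride out of the cell on the potassium gradient. Sodium-potassium-chloride cotransporters such as Ncc69 carry chloride in on the sodium gradient. The balance between both kinds decides whether chloride flows into or out of a neuron when GABA or glutamate opens a chloride channel. Loss of kcc function makes flies prone to seizures. ClC-a is related to mammalian chloride channels of the plasma membrane, while ClC-b and ClC-c are related to the chloride-proton exchangers of mammalian lysosomes and endosomes.

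RNA of the pump's alpha subunit, of its main beta subunit, of kcc and of ClC-c took a larger share of reads in adult. RNA of nrv2 and ClC-b took a smaller share, and the call for nrv2 was lost with other scaling and without some libraries. Of the 9 genes, 6 passed the expression filter (5 CPM or more, in reads per 1000000 assigned reads, in 3 or more of 6 libraries), and nrv1, Ncc69 and ClC-a did not. All 6 tested genes passed an adjusted p of 0.05 (limma), 4 higher and 2 lower in adult, with a median log2 fold change of 0.90. Among the 6814 genes tested 65.1% passed, 27.2% higher and 37.9% lower in adult, and the median log2 fold change was -0.15. For these 6 genes the 3 adult libraries also lay wholly to one side of the 3 development libraries, 4 above and 2 below, as they did for 69.0% of all tested genes, 28.8% above and 40.2% below. With most tested genes differing between the stages, the count by itself says little about these genes. Each fold change is the adult mean minus the development mean of log2(CPM + 1), where 1 is the pseudocount, which understates changes of low genes, and is followed by its standard error (SE). In sorted bulk samples, fewer cells expressing a gene and less of its RNA per cell cannot be told apart.

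Atpalpha (FBgn0002921, 3R, 20948714 to 20976239, plus strand, BDGP6.54) was the most abundant of all 14138 genes in each adult library. It had 48908, 45307 and 43916 CPM in adult libraries 1, 2 and 3, and 22428, 16263 and 16226 CPM in development libraries 1, 2 and 3. Every adult library was thus well above every development library, and development replicate 1 stood above its fellows. In development the gene already had rank 2 in replicates 1 and 2 and rank 3 in replicate 3. The log2 fold change was 1.35 ± 0.12 (SE; limma, adjusted p = 3.1e-07), and without development replicate 1 it was 1.502 (adjusted p = 3.812e-09). A rise at least this large was seen in 8.97% of tested genes.

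nrv3 (FBgn0032946, 2L, 21380000 to 21393319, plus strand), the beta subunit gene best known from the nervous system, had 8197, 9271 and 9046 CPM in adult libraries and 4247, 4594 and 4083 CPM in development libraries. All adult libraries lay above every development library, and the log2 fold change was 1.04 ± 0.09 (SE; limma, adjusted p = 1.884e-07). Its rank among all genes was 5 or 6 in adult libraries and 14 or 15 in development libraries. nrv2 (FBgn0015777, 2L, 6789770 to 6798862, minus strand), a beta subunit gene also known from glia and from epithelial septate junctions, went the other way. It had 179.4, 199.8 and 204.6 CPM in adult libraries and 250.8, 250.2 and 228.7 CPM in development libraries, which do not overlap, and its log2 fold change was -0.32 ± 0.10 (SE; limma, adjusted p = 0.01488). This small fall was not past the threshold once libraries were scaled to the typical gene (log2 fold change -0.17, adjusted p = 0.1772 with trimmed mean scaling), nor without adult replicate 1 (-0.26, adjusted p = 0.06685) or development replicate 2 (-0.30, adjusted p = 0.05867).

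nrv1 (FBgn0015776, 2L, 6778555 to 6786861, minus strand), which lies 2908 bases from nrv2, was below the expression filter at both stages. It had 2.16, 1.37 and 1.82 CPM in adult libraries, from 45 to 91 reads, and 2.31, 3.33 and 3.01 CPM in development libraries, from no fewer than 56 reads. The adult values were all lower, by a narrow margin, and at this level no test was made. Of 5 listed relatives of the pump genes in the table (JYalpha, CG45062, CG45063, CG11703 and CG33310) none passed the expression filter, and the highest value in any library was 6.62 CPM, for CG33310 in adult. Atpalpha and nrv3 together with nrv2 therefore made up nearly all of the measured sodium pump RNA.

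**Figure D1:**
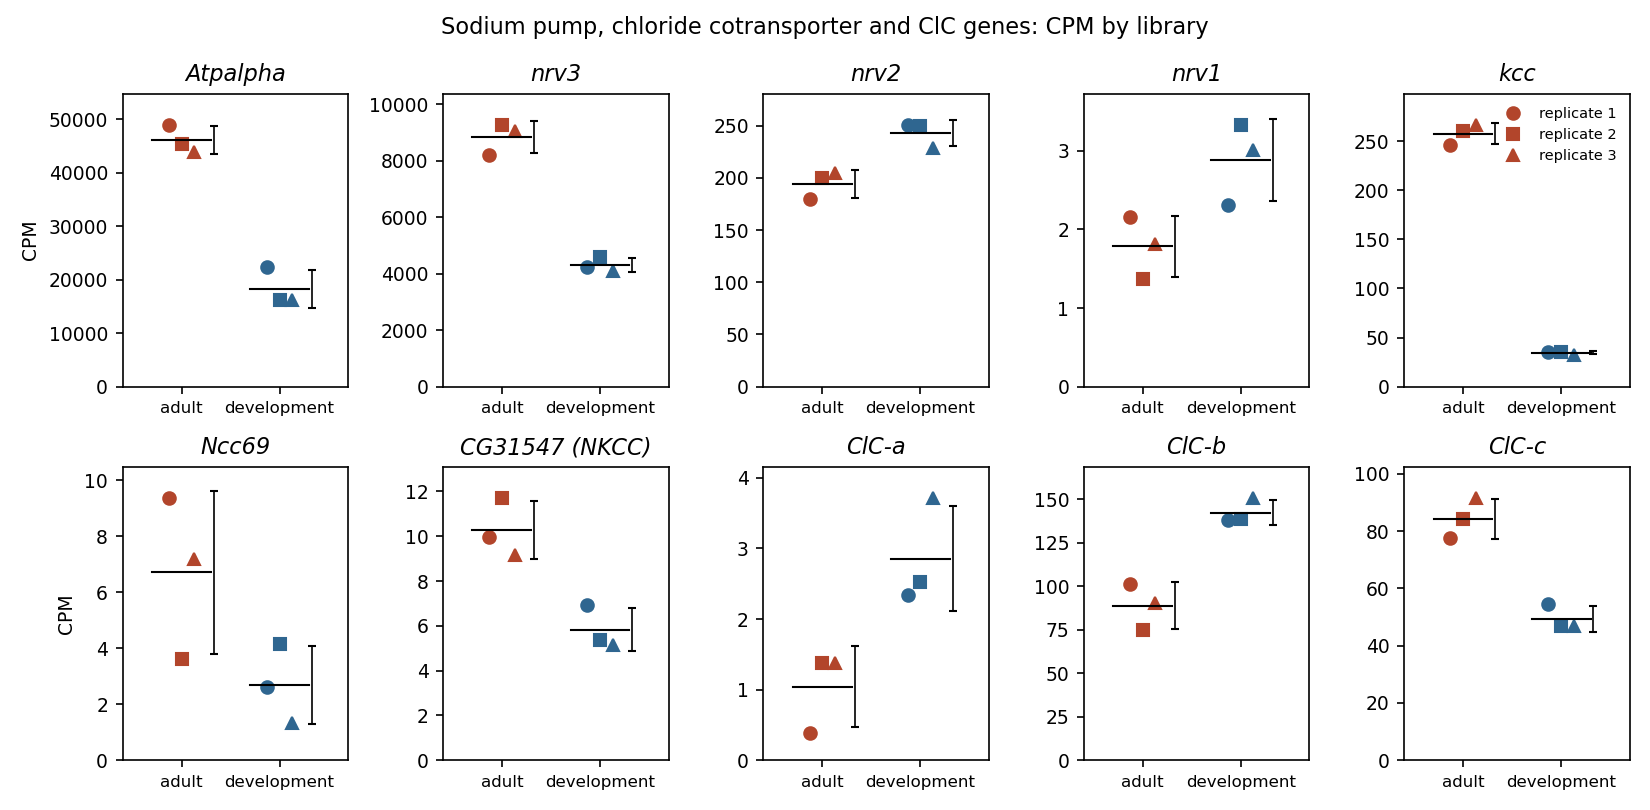
CPM of each gene in each library, with adult libraries (red) left of development libraries (blue), symbols for replicates 1, 2 and 3, a line at the group mean and a bar of 1 SD (n = 3 each). Each panel has its own axis from 0; the groups are apart in every panel but that of Ncc69, and kcc has the widest gap in fold terms, at 245.9 to 266.6 CPM in adult and 32.7 to 35.3 CPM in development.

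The pump genes took a large share of the whole library. Atpalpha and the 3 nervana genes summed to 5.73%, 5.48% and 5.32% of CPM in adult libraries and 2.69%, 2.11% and 2.05% in development libraries. The shares averaged 5.51% ± 0.208 in adult and 2.29% ± 0.354 in development (SD, n = 3 each; exact two-sided permutation p = 0.1, which is the lowest value possible with 3 libraries a group). To compare genes of different length, CPM were divided by the length of the gene's merged exons in kb. On that scale nrv3 made up 97.1% ± 0.073 of the summed beta subunit level in adult and 92.9% ± 0.25 in development (SD, n = 3; exact p = 0.1). The share of nrv2 was 2.84%, 2.80% and 2.93% in adult libraries and 7.31%, 6.78% and 6.96% in development libraries, so the groups were far apart next to their spread. nrv1 held 0.043% ± 0.012 of the beta level in adult and 0.135% ± 0.022 in development.

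The summed beta subunit level was below that of Atpalpha at both stages. The ratio of beta to alpha CPM per kb ran from 0.242 to 0.297 in adult libraries and from 0.286 to 0.425 in development libraries. On the log2 scale it averaged -1.85 ± 0.17 in adult and -1.48 ± 0.29 in development (SD, n = 3 each). The groups overlapped, and the difference of -0.38 did not pass the test (exact two-sided permutation p = 0.3). Only development replicate 1, the library with the high Atpalpha value, reached into the adult range, at a log2 ratio of -1.80. With each library left out in turn, the difference ran from -0.54, without development replicate 1, to -0.25, without development replicate 2. Reads were counted per gene, so transcripts of a gene, of which the annotation lists 11 for Atpalpha, 6 for nrv2 and 4 for nrv3, were not told apart.

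The potassium-chloride cotransporter gene kcc (FBgn0261794, 2R, 23907654 to 23925066, plus strand) changed most among the 9 genes. It had 245.9, 260.1 and 266.6 CPM in adult libraries and 35.3, 35.3 and 32.7 CPM in development libraries. Both groups were tight, with a coefficient of variation of 4.11% in adult and 4.29% in development. The log2 fold change was 2.87 ± 0.12, a 7.3-fold higher level in adult (SE; limma, adjusted p = 1.923e-10), and a rise at least this large was seen in 2.13% of tested genes. kcc and SERCA, the calcium pump gene of the endoplasmic reticulum, end 10 bases apart on opposite strands, and no source says whether counting used strand. SERCA averaged 1195 ± 31.4 CPM in adult and 953.2 ± 95 CPM in development (SD, n = 3 each), higher by 0.33 ± 0.09 on the log2 scale (SE; limma, adjusted p = 0.006567), and 16.03% of its exonic bases overlap CG2812 on the opposite strand. Of the exonic bases of kcc, 3.19% also belong to an antisense noncoding gene.

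The chloride importers stayed at low levels. Ncc69 (FBgn0036279, 3L, 12368646 to 12391444, minus strand), known from fly glia and renal tubules, had 9.36, 3.601 and 7.18 CPM in adult libraries and 2.60, 4.14 and 1.34 CPM in development libraries. Adult replicate 2 lay below development replicate 2, so the groups overlapped, and the spread within each group was wide, with a coefficient of variation of 43.3% in adult and 52.0% in development. The values rest on 118 to 395 reads per library in adult and 25 to 143 in development, and the gene did not pass the expression filter. CG31547, or NKCC (FBgn0051547, 3R, 5489505 to 5502702, minus strand), had 9.97, 11.7 and 9.17 CPM in adult libraries and 6.94, 5.38 and 5.16 CPM in development libraries, which do not overlap. Its log2 fold change was 0.73 ± 0.24 (SE; limma, adjusted p = 0.01755). That call was lost with all genes tested (adjusted p = 0.07402), without adult replicate 2 (0.06324), and without development replicate 2 (0.05819) or 3 (0.06244).

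Per kb of exon, kcc exceeded Ncc69 and CG31547 together by 11.4 to 14.4 times in adult libraries and by 3.15 to 4.22 times in development libraries. The log2 ratio was 3.51, 3.84 and 3.85 in adult libraries and 1.66, 1.71 and 2.08 in development libraries. The means were 3.73 ± 0.20 in adult and 1.81 ± 0.23 in development (SD, n = 3 each), a difference of 1.92 that is many times the spread within a group (exact two-sided permutation p = 0.1, the smallest possible here). RNA of kcc thus outweighed RNA of Ncc69 and CG31547 together at both stages, and more so in adult.

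**Figure D2:**
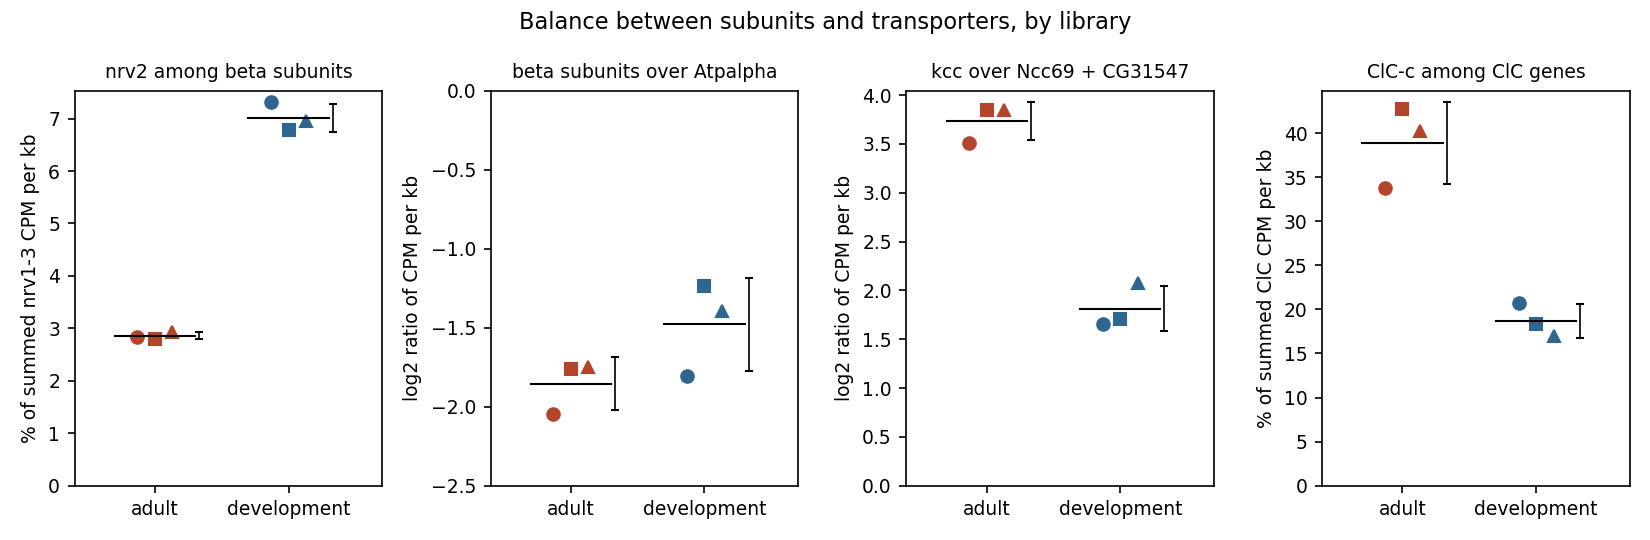
Ratios and shares computed from CPM per kb of merged exons in each library, adult (red) left of development (blue), with a line at the group mean and a bar of 1 SD (n = 3 each). The share of nrv2 among beta subunits, the ratio of kcc to its importing relatives and the share of ClC-c among ClC genes are apart between groups, while the ratio of beta subunits to Atpalpha overlaps, with development replicate 1 (circle) at -1.80.

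Of the ClC genes, ClC-c was higher in adult and ClC-b was lower, while ClC-a was too low to test. ClC-c (FBgn0036566, 3L, 16090454 to 16096151, plus strand), of the endosomal type, had 77.5, 84.3 and 91.5 CPM in adult libraries and 54.5, 46.8 and 46.7 CPM in development libraries. The adult values were all higher, and the log2 fold change was 0.76 ± 0.14 (SE; limma, adjusted p = 0.0002529). ClC-b (FBgn0033755, 2R, 12572068 to 12575299, plus strand), of the lysosomal type, had 101.5, 74.99 and 90.3 CPM in adult libraries and 138.0, 138.6 and 150.6 CPM in development libraries. The adult values were all lower, and the log2 fold change was -0.68 ± 0.13 (SE; limma, adjusted p = 0.0004449). The exons of ClC-c share 8.18% of their bases with CG13074 and those of ClC-b share 2.27% with Sin3A, each on the opposite strand, and those reads cannot be assigned with certainty where strand was not used.

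ClC-a (FBgn0051116, 3R, 11797244 to 11813207, minus strand), the plasma membrane type and in the fly brain a gene of glia, had the lowest mean per kb of merged exons at both stages. In development its libraries overlapped those of Ncc69 on that scale. ClC-a had 0.379, 1.37 and 1.38 CPM in adult libraries, which is 16, 45 and 56 reads, and 2.34, 2.52 and 3.71 CPM in development libraries, which is 73, 87 and 69 reads. All adult values were lower, but none of the libraries reached 5 CPM and no test was made. Within the family, per kb of exon, ClC-c held 38.9% ± 4.62 of the summed level in adult and 18.7% ± 1.90 in development, and ClC-b held 60.8% ± 4.81 in adult and 80.6% ± 1.76 in development (SD, n = 3 each; exact two-sided permutation p = 0.1 for each share). ClC-a held 0.329% ± 0.191 in adult and 0.723% ± 0.163 in development. Per kb of exon, ClC-b remained above ClC-c in every library, with a gap that was narrower in adult. In CPM, ClC-c was above ClC-b in adult replicate 2 (84.33 against 74.99) and adult replicate 3 (91.45 against 90.32).

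The genes were then ordered by CPM per kb of merged exons. The order of genes close in level depends on the length used. Merged exons and the longest transcript were 5.89 and 4.44 kb for ClC-a, but 5.05 and 4.82 kb for Ncc69. In adult the order was Atpalpha at 6893 ± 386, nrv3 at 1853 ± 119, nrv2 at 54.5 ± 3.75, kcc at 52.1 ± 2.14, ClC-b at 33.6 ± 5.02 and ClC-c at 21.3 ± 1.77 CPM per kb (SD, n = 3). CG31547 followed at 2.59 ± 0.325, Ncc69 at 1.33 ± 0.576, nrv1 at 0.812 ± 0.179 and ClC-a at 0.177 ± 0.0976 CPM per kb. Among neighbours in that order, the libraries of nrv2 and kcc overlapped, as did those of Ncc69 and nrv1, and all other neighbours were apart. In development the order was Atpalpha at 2740 ± 534, nrv3 at 903 ± 54.7, nrv2 at 68.2 ± 3.54, ClC-b at 53.8 ± 2.70, ClC-c at 12.5 ± 1.13 and kcc at 6.96 ± 0.298 CPM per kb. The last 4 were CG31547 at 1.47 ± 0.244, nrv1 at 1.31 ± 0.237, Ncc69 at 0.534 ± 0.277 and ClC-a at 0.485 ± 0.126 CPM per kb. The overlapping neighbours in development were CG31547 with nrv1, and Ncc69 with ClC-a. kcc, below both intracellular ClC genes in development, was above both in adult.

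**Figure D3:**
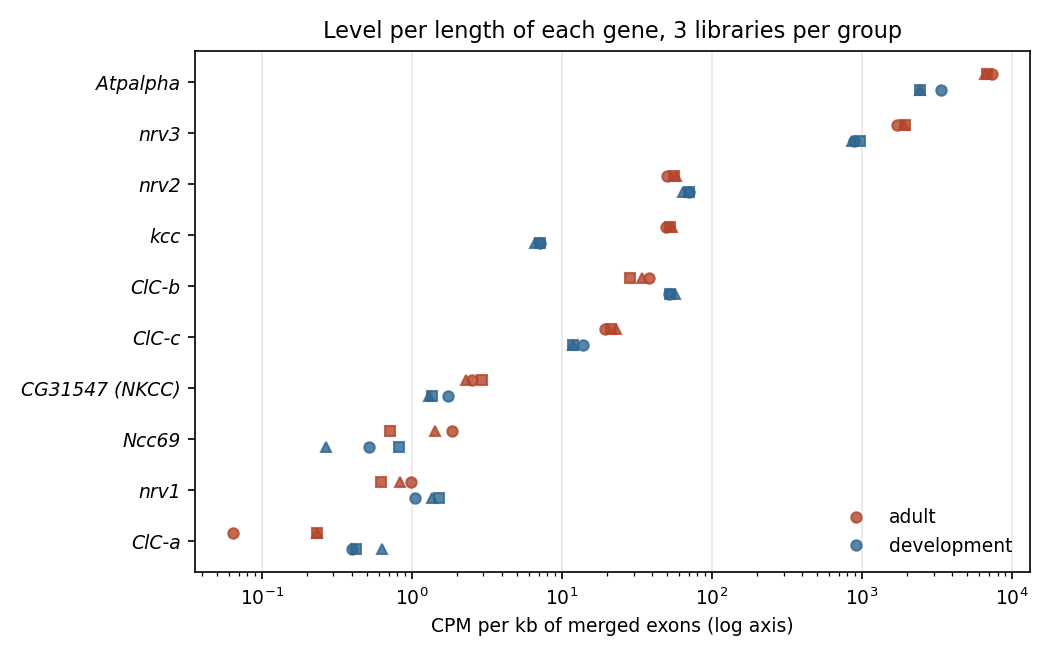
CPM per kb of merged exons on a log axis, with adult libraries (red) above development libraries (blue) for each gene and symbols for replicates 1 to 3 (circle, square, triangle). Genes run from Atpalpha, at 6574 to 7322 in adult, down to ClC-a; kcc has the largest distance between groups of the genes above 5 CPM per kb.

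Of 32 tested genes in 6 lists of related transporters, channels and their regulators, 13 rose and 10 fell. These 71.9% lie near the 65.1% of all tested genes that passed, so the counts are no result about the lists. Kcc and the importers are controlled by the kinases Wnk and Fray, which switch the exporter off and the importers on by phosphorylation, with the scaffold protein Mo25. Wnk averaged 276.6 ± 29.0 CPM in adult and 178.1 ± 17.8 CPM in development, and fray 355.2 ± 77.8 CPM in adult and 153.0 ± 16.4 CPM in development (SD, n = 3 each). Both rose, with log2 fold changes of 0.63 ± 0.12 for Wnk (limma, adjusted p = 0.0003222) and 1.19 ± 0.14 for fray (SE; limma, adjusted p = 6.439e-06), although 12.82% of the exonic bases of fray also belong to CG7694 on the same strand. Mo25 had 137.7 ± 15.7 CPM in adult and 167.8 ± 11.8 CPM in development, at the edge of the threshold (log2 fold change -0.29; limma, adjusted p = 0.04978), and that call was lost under 10 of 14 alternatives, among them trimmed mean scaling (adjusted p = 0.3385) and leaving out adult replicate 1 (0.06815) or 2 (0.2233) or development replicate 2 (0.1177) or 3 (0.1556). Of the 2 remaining relatives of kcc in the table, CG10413 fell by 1.09 ± 0.16 on the log2 scale (SE; limma, adjusted p = 4.019e-05). CG10413 had 29.2 ± 4.31 CPM in adult and 62.9 ± 4.70 CPM in development, where it was above kcc in CPM. CG12773 had 15.5 ± 3.75 CPM in adult and 18.1 ± 6.26 CPM in development. Neither is part of the ratio of kcc to Ncc69 and CG31547.

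Other genes of chloride channel families gave 2 of 8 tested members higher and 2 lower, which is 4 of 8 called against 65.1% of all tested genes, with a median log2 fold change of -0.06. The anoctamin gene subdued was at 232.2 ± 15.3 CPM in adult and 57.9 ± 4.53 CPM in development, higher by 1.99 ± 0.12 on the log2 scale (SE; limma, adjusted p = 6.835e-09). CG15270, of the same family, rose by 0.54 ± 0.12 on the log2 scale. Clic, of the family of intracellular chloride channels, fell by 1.118 ± 0.14, and the tweety gene tty fell by 0.42 ± 0.12 (SE). The call for tty was lost with trimmed mean scaling (limma, adjusted p = 0.07878), with the median log ratio at 0 (0.0583) and with all genes tested (0.06476), and without development replicate 1, its highest library at 1332 CPM, the log2 fold change was -0.27. Of the 12 listed ligand-gated chloride channel genes present, 6 were tested, of which 2 rose and 2 fell, or 66.7% against 65.1% of all tested genes. Rdl, the main GABA-gated chloride channel gene, had 1653 ± 92.8 CPM in adult and 1678 ± 109.5 CPM in development (SD, n = 3 each; limma, adjusted p = 0.8458). GluClalpha, the glutamate-gated channel gene, rose by 0.38 ± 0.10, and Lcch3, a GABA receptor subunit gene, fell by 0.57 ± 0.10 on the log2 scale (SE), though 23.96% of its exonic bases overlap Ranbp16 on the opposite strand. HisCl1, a histamine-gated channel gene, rose by 0.60 ± 0.22 and CG8916 fell by 0.89 ± 0.29, calls that were both lost with all genes tested (limma, adjusted p = 0.09284 for HisCl1 and 0.08249 for CG8916). The call for HisCl1 was also lost without adult replicate 1 (0.05212) or 3 (0.1258) or development replicate 1 (0.07966) or 2 (0.07048), and that for CG8916 without development replicate 3 (0.078). CG8916 was under 5 CPM in every adult library and passed the filter only through development, where it is high.

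Exchangers that run on the sodium gradient built by the pump, or that carry chloride against other anions, gave 6 of 10 tested members higher and 2 lower. Over all tested genes 27.2% were higher and 37.9% lower. The median log2 fold change of the 10 was 0.86 against -0.15 for all tested genes. These counts and this median hold CG8177, described next, which was tested only through its adult values. The list was also drawn up with earlier results of these data known, so they are no result about the list. Of the exonic bases of Nhe2, which is among the 6, 50.68% also belong to CG46307 on the same strand. CG8177, now called Ae2, a chloride-bicarbonate exchanger gene (FBgn0036043, 3L, 9763544 to 9786466), averaged 293.0 ± 13.8 CPM in adult against 2.51 ± 0.597 CPM in development (SD, n = 3 each). The difference of 6.40 ± 0.17 on the log2 scale (SE; limma, adjusted p = 5.826e-12) exceeded that of any gene described here. CG8177 was under 5 CPM in every development library. It passed the expression filter only through adult, where it is high, so its call carries no support. The sodium-calcium-potassium exchanger genes Nckx30C and CG1090 rose by 3.29 ± 0.15 and 1.30 ± 0.10 on the log2 scale. Nckx30C was at 668.8 ± 32.6 CPM in adult and 68.7 ± 18.2 CPM in development. CG6928, of a family of sulfate and anion transporters, fell by 2.20 ± 0.26, and the sodium-proton exchanger gene Nhe1 fell by 0.56 ± 0.11. Among calcium pumps, relatives of the sodium pump, SERCA rose by the 0.33 given above, PMCA fell by 0.30 ± 0.09 and SPoCk fell by 0.60 ± 0.22 (SE). The falls of PMCA and SPoCk were not past the threshold with trimmed mean scaling (limma, adjusted p = 0.1804 for PMCA and 0.1104 for SPoCk). The call for PMCA was also lost without adult replicate 1 (0.05749) or development replicate 2 (0.05436), and that for SPoCk without adult replicate 1 (0.06095) or 2 (0.07429) or development replicate 1 (0.1302). The groups of SPoCk overlapped, at 40.1 to 46.7 CPM in adult and 46.3 to 100.5 CPM in development, and its log2 fold change was -0.30 without development replicate 1 and -0.85 without development replicate 3. Of PMCA, 40.53% of the exonic bases overlap Rnf11 on the opposite strand.

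**Figure D4:**
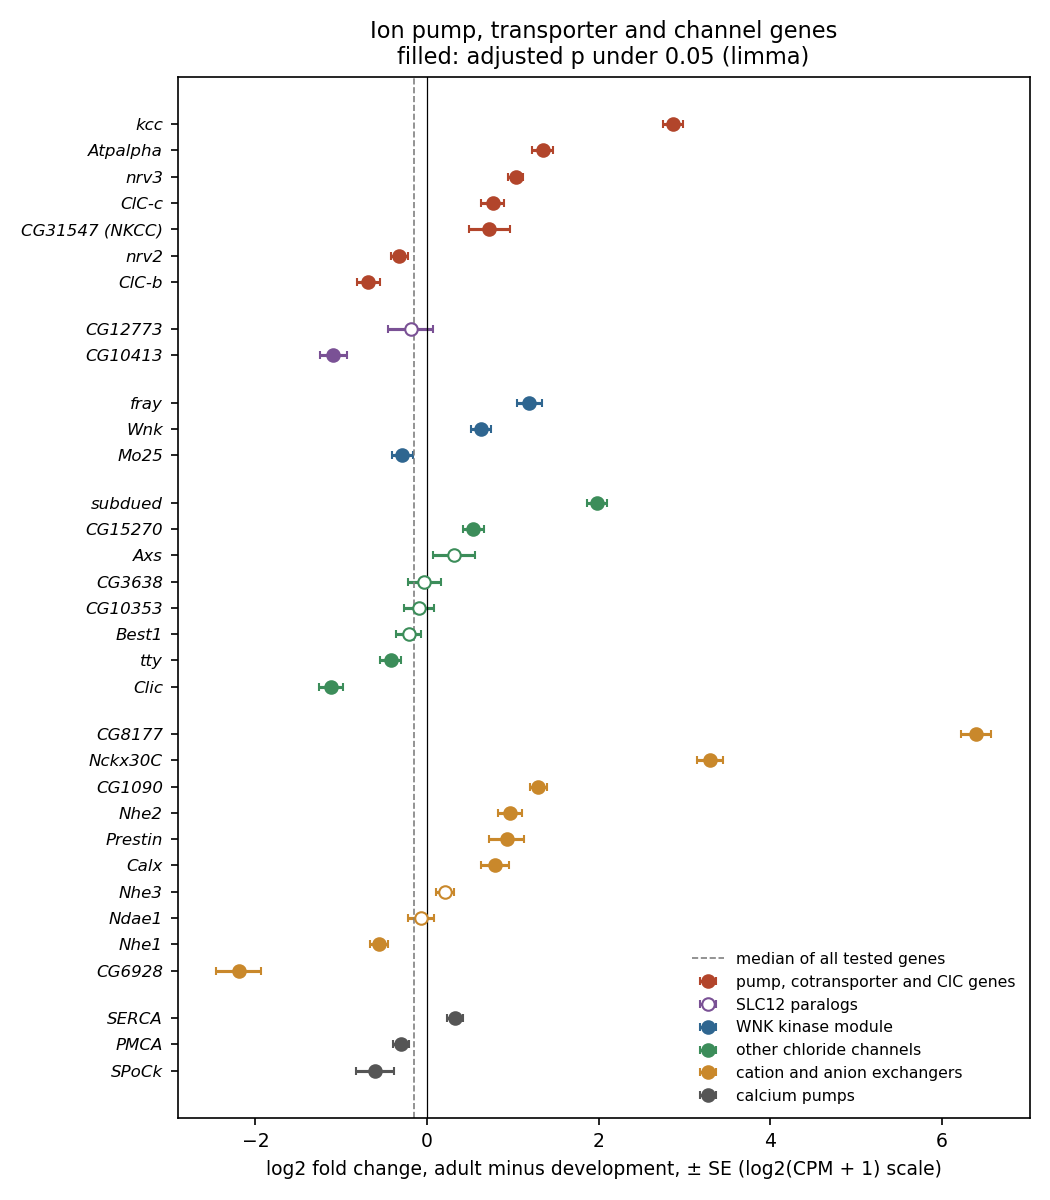
Log2 fold change, adult minus development, with its SE for each tested gene of the pump, cotransporter and ClC set and of 5 related lists, filled where the adjusted p is under 0.05 (limma, 3 libraries per group). The dashed line marks the median of all tested genes, -0.15; kcc leads its own set at 2.87, and CG8177 and Nckx30C lie farther out among the exchangers.

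The genes whose pattern over the 6 libraries was nearest to that of kcc were CG12769, CG31221, Pgi and CG32225, with a root mean square difference of 0.048 to 0.077 log2 units after each gene's own mean was subtracted. Pgi, which encodes glucose-6-phosphate isomerase, averaged 632 CPM in adult and 91.0 CPM in development. Nearest to ClC-b, which fell most among the tested members, were CG5359, CR45333, CG7357 and Rgk1, at 0.038 to 0.062 log2 units. With 2 groups of 3 libraries this measure mostly picks genes with a fold change of the same size.

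The label of the cells was checked against marker genes. Over all tested genes 65.1% passed the threshold, 27.2% higher and 37.9% lower in adult, so counts of markers by themselves say little. Of 10 genes of projection neurons or neurons in general, 9 were tested, of which 3 rose and 3 fell, and none was at 0 in any library. The projection neuron transcription factor genes acj6, Oaz and C15 were at 140 to 152, 283 to 305 and 137 to 154 CPM in adult libraries and at 162 to 181, 427 to 484 and 160 to 231 CPM in development libraries. vvl was lower in adult too (16.3 to 17.7 against 24.4 to 36.7 CPM). Higher in adult were ChAT (556 to 586 against 37.6 to 53.7 CPM) and VAChT (173 to 275 against 57.5 to 99.1 CPM). So were nSyb (2094 to 2358 against 1010 to 1734 CPM) and brp (1922 to 2084 against 1725 to 1887 CPM). The groups overlapped for Lim1 (4.52 to 8.58 against 2.58 to 4.57 CPM) and elav (194 to 226 against 167 to 359 CPM). Of 8 glia markers 5 were tested, of which 3 rose and 1 fell, and their summed level was 304 to 426 CPM in adult and 63.9 to 95.5 CPM in development, most of it from Gs2. A longer list of 14 glia markers had 9 tested, of which 6 rose and 2 fell, and summed to 1863 to 1964 CPM in adult and 743 to 950 CPM in development, most of it from Eaat2. The glia marker repo was at 0.811 to 1.34 CPM in adult and 0.753 to 0.931 CPM in development, gcm was at 0 in 2 libraries and moody in 1. The part of glial RNA in the values of nrv2, ClC-a and Ncc69, genes also known from glia, was not tested. All 5 fat body markers were tested, of which 2 rose and 3 fell, and summed they were at 34.2 to 47.6 CPM in adult and 41.0 to 58.6 CPM in development, and the 5 muscle markers, none tested, summed to 1.86 to 2.14 CPM in adult and 4.69 to 6.93 CPM in development. With Tm1 and TpnC4 added, the 7 muscle markers had 1 tested, Tm1, which fell, and summed to 78.4 to 97.4 CPM in adult and 166 to 185 CPM in development. Of 6 photoreceptor markers 3 were tested and all 3 rose. They summed to 953 to 979 CPM in adult and 274 to 290 CPM in development, most of it from norpA, while the rhodopsin gene ninaE did not exceed 3.69 CPM. Hemocyte markers summed to 224 to 250 CPM in adult and 356 to 491 CPM in development, with 4 of 5 under 5 CPM in every library. Olfactory receptor neuron markers summed to 23.6 to 37.3 CPM in adult and 2.11 to 4.46 CPM in development. Orco gave most of the adult sum (23.2 to 36.0 CPM), and 7 of the 8 markers were under 5 CPM in every library. Dividing cell markers summed to 5.09 to 8.81 CPM in adult and 14.7 to 21.1 CPM in development. Kenyon cell markers summed to 1075 to 1227 CPM in adult and 933 to 1437 CPM in development, most of it from mub and Pka-C1. The Kenyon cell markers ey, dac and prt did not exceed 5.25, 5.26 and 7.5 CPM. Lsp2 and Lsp1beta (fat body) were under 5 CPM in every adult library. Yp1 and Yp2 (fat body), Arr2 and trp (photoreceptor), Gat and Tret1-1 (glia) and Orco (olfactory receptor neuron) were so in every development library. These genes passed the filter only through the group where they are high, so their calls, and the counts that hold them, carry no support. The part of these other cell types in the results was not tested.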

How the data were processed

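The authors deposited 1 table of log2 values, which the values show to be log2(CPM + 1): converted back, each of the 6 libraries sums to 1000000. Per the submitters' processing notes STAR 2.4.2a and HTSeq 0.7.1 were used, with no roles named; no source used here names the genome build, annotation, filters or strand setting. Of 14139 rows, 1 without a symbol (at most 0.0001% of a library) was left out. Within each library CPM were whole multiples of a smallest step, which gave back the reads (100% of values above 0 whole within 0.1 read), 32764616 to 42217764 per adult library and 18602612 to 34542641 per development library. Library pairs within a group differed beyond counting noise (chi-square per degree of freedom at least 20.6).

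Genes with at least 5 CPM in at least 3 libraries, 6814 in all, were tested with limma 3.58.1 in R 4.3.3 (lmFit, eBayes with trend). The values were log2(CPM + 1), the model held group alone, tests were two-sided, and p-values were adjusted by Benjamini-Hochberg over the 6814 genes. The code was tested on simulated data with far fewer changed genes than were called here, so that test says nothing about the calls. Ratios and shares used CPM per kb of merged exons and exact permutation tests over libraries (scipy 1.17.1). Symbols were matched to FlyBase identifiers for 14021 of 14138 rows; coordinates and lengths come from the BDGP6.54 annotation (Ensembl 115). The members and all gene lists were chosen with earlier results of these data known. Named are all members, and from each list the up to 3 largest rises and falls past the threshold and its most abundant tested gene, and the 4 genes nearest in pattern to kcc and to ClC-b. The pump relatives and CG12773 were named after their values were seen. Alternatives covered the pseudocount, filter, scaling, variance model, replicate number as a block, exon length and each library left out.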

Additional observations from a re-analysis of the deposited data

How the results depend on the processing

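The number of genes past the threshold was 3796 to 4659 over 14 alternatives, against 4439. The fold changes of Atpalpha, nrv3, kcc, ClC-b and ClC-c kept their direction and stayed past the threshold in all 14, at 1.268 to 1.503 for Atpalpha, 0.998 to 1.193 for nrv3, 2.735 to 3.021 for kcc, -0.782 to -0.527 for ClC-b and 0.704 to 0.917 for ClC-c. That of nrv2 was not past the threshold with scaling to a median log ratio of 0 (-0.171, adjusted p = 0.1648) or with trimmed mean scaling (-0.166, adjusted p = 0.1772), which move the median of all tested genes close to 0 and make 2233 of 4400 calls higher in adult with trimmed mean scaling, against 1856 of 4439, and ran from -0.365 to -0.264 with each library left out. That of CG31547 was 0.727 with no expression filter (adjusted p = 0.07402) and ran from 0.639 to 0.84 with each library left out. Rdl, not called, changed sign with the median log ratio set to 0 (0.129) and trimmed mean scaling (0.136), and ran from -0.067 to 0.027 with each library left out. Among 27 named related genes, 334 of 374 values kept direction and call and 36 lost the call. With trimmed mean scaling 5 of 6 tested members had groups that do not overlap, against 6.

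With the length of the longest transcript, the difference in the share of nrv2 among beta subunits was -5.25 percentage points and that of nrv3 5.33, against -4.16 and 4.25. With no expression filter the untested members had an adjusted p of 0.2442 (nrv1), 0.1396 (Ncc69) and 0.0653 (ClC-a). Fitting the replicate number as a block gave 4428 genes past the threshold and changed no member's call. Deviations of same-numbered libraries from their group means correlated at -0.028, 0.042 and -0.011 over genes, so no effect shared by number was seen. Whether same-numbered libraries were prepared together cannot be told from this. In ratios and shares, pairing by replicate number, tested by sign flips, could not give a p below 0.25. Count-model tests on recovered reads were not run, since the deposited values are on a log scale; limma voom on those reads called 4436 genes and every tested member. The causes of these differences were not tested. Depth limits nrv1, ClC-a and Ncc69, which rest on 16 to 395 reads per library.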

Other observations

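Septate junctions, in which Atpalpha and nrv2 have a known role in epithelia and glia, were followed through 12 tested genes, of which 6 fell and 2 rose in adult. These 66.7% lie near the 65.1% of all tested genes that passed. Lac and crok were under 5 CPM in every adult library and passed the expression filter only through development, where they are high, so their falls, and the counts that hold them, carry no support. The neurexin gene Nrx-IV was at 238.8 ± 42.4 CPM in adult and 452.7 ± 21.3 CPM in development (SD, n = 3 each), with log2 fold change -0.93 ± 0.12 (SE; limma, adjusted p = 1.362e-05). Lac, which encodes an immunoglobulin protein of the junction, had 1.21 ± 0.352 CPM in adult and 14.2 ± 2.79 CPM in development and fell by 2.78 ± 0.28 on the log2 scale. The small membrane protein gene crok fell by 1.59 ± 0.23 and the claudin gene pck by 1.07 ± 0.16. Higher in adult were cora, which encodes coracle, with a log2 fold change of 0.83 ± 0.12, and vari, whose groups overlapped, with 0.50 ± 0.20 (SE; limma, adjusted p = 0.03997), a call lost without adult replicate 2 (adjusted p = 0.1812) or 3 (0.05163) or development replicate 1 (0.1067) or 3 (0.1325). Of the exonic bases of vari, 15.24% overlap Pomp on the opposite strand.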
